A study of Mus musculus with 2 samples.

Results

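The regions described here are EP300 peaks that lie in intergenic DNA close to a gene: their summits fall outside every protein-coding gene body and over 1 kb and up to 10 kb from the nearest transcription start site (TSS) of a protein-coding transcript. They were taken from the optimal list of peaks kept by the irreproducible discovery rate (IDR), on chromosomes 1 to 19, with the mm10 assembly and GENCODE gene models, and they number 1128 of 17169 peaks, or 6.57%. The remaining peaks were promoter-proximal (5739, within 1 kb of a TSS), distal intronic (5581), intergenic at over 10 kb to 100 kb (2927), intergenic beyond 100 kb (1283) or distal exonic (511). Distance, side and class come from the rule and describe the regions, whereas base composition and motifs were not used to choose them. Within the optimal list the rule did not use peak signal or detection in each replicate. That list was itself selected on the reads of both replicates, so signal and detection are not independent of the selection.

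The peaks come from chromatin immunoprecipitation with an antibody to EP300, followed by sequencing (ChIP-seq), of whole heart from mice of strain B6NCrl on postnatal day 0. There was 1 group of 2 replicates, with no genetic change or treatment in the labels and no second group, so every comparison below is between classes of peaks. Both replicates carry 1 biosample and 1 donor identifier, so differences between them may be technical. The tissue label was set beside marker genes, in lists written with earlier results of these data known, so the counts are a description. The 15412 peaks within 100 kb of a TSS were assigned to the nearest protein-coding gene. Of these, 173 belonged to 30 sarcomere genes, against 6 for 20 neuronal genes, 4 for 19 liver genes and 1 for 11 erythroid genes. Epicardial genes, also of the heart, had 4 for 10 genes. The median gene length was 23520 bp for the sarcomere list, 11393 bp for the neuronal, 9974 bp for the liver and 3364 bp for the erythroid. Its part in the counts was not tested.

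EP300 is a large acetyltransferase that modifies histones and other nuclear proteins. It does not read a DNA sequence itself and is brought to enhancers and promoters by transcription factors bound there, and the acetylation of histone H3 that it lays down is a hallmark of active enhancers. In the heart such factors include GATA, MEF2, TEAD, NKX2 and T-box proteins in muscle cells and ETS and SOX proteins in the endothelium. A region a few kb upstream of a gene can act as a nearby enhancer, but it can also belong to a more distant gene or hold an unannotated promoter, and the assignment to the nearest gene used below is a rule of distance.

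The sequences below show the summit base with 50 bases on either side, for peaks on which the results turn. They are from the mm10 reference (RefSeq GRCm38.p6), plus strand, 5′ to 3′, with every match to 1 of the 28 motifs searched in capitals. The first group holds GATA sites, read as AGATAAG or its reverse complement; the peak of Crip2 also holds a MEIS site (TGACAG) and an NKX2 site (TNAAGTGG).
F3, chr3:121736278-121736378: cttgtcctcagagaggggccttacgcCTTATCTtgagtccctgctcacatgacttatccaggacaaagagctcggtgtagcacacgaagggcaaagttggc
Shank3, chr15:89497802-89497902: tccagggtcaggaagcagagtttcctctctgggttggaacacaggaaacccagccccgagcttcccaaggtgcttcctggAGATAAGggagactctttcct
Crip2, chr12:113137933-113138033: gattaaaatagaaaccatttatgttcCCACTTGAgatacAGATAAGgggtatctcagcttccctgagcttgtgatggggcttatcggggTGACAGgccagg

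The second group lies near endothelial genes and holds the endothelial type of ETS site (ACAGGAAG), the SOX site (ACAATGG) or both. The window of Eng also holds an NKX2 site and a forkhead site (TGTTTAC), which overlaps the ETS site.
Egfl7, chr2:26578587-26578687: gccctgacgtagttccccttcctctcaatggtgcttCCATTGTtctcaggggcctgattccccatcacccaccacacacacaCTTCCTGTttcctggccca
Eng, chr2:32638120-32638220: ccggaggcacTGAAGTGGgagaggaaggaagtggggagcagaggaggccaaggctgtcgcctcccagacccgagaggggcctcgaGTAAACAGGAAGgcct
Cdh5, chr8:104096811-104096911: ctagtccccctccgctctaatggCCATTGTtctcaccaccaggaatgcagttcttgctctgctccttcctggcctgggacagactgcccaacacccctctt

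The third group holds sites found at genes of the contractile apparatus and at E-box peaks: 2 MEIS sites near Myl2, a TEAD site (GGAATGT) near Myh7, and the class A E-box CAGCTG with a GATA site and a CACCC box (CCACACCC) near Smtnl2. The window near Bhlhe41 holds a class A E-box, 2 circadian E-boxes (CACGTG) and overlapping KLF and SP sites (GGGCGGGG).
Myl2, chr5:122094635-122094735: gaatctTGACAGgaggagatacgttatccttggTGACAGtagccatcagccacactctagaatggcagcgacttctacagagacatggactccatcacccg
Myh7, chr14:54996874-54996974: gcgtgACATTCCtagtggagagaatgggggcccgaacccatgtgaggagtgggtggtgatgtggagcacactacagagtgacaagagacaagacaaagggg
Smtnl2, chr11:72416821-72416921: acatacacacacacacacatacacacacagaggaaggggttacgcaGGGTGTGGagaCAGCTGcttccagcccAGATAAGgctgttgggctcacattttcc
Bhlhe41, chr6:145855798-145855898: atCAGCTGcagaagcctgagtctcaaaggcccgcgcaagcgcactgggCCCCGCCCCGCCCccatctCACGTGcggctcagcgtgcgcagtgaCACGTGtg

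The fourth group holds the palindrome bound by the glucocorticoid receptor and its close relatives, which stood furthest above its flanks of the motifs past the threshold. The windows of Fkbp5 and of the second Klf9 peak lie at TSSs of long non-coding RNAs (lncRNAs), and Fkbp5 was chosen for display after its values were seen.
Arrdc2, chr8:70833618-70833718: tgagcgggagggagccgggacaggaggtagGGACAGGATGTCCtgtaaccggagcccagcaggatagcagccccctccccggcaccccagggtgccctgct
Fkbp5, chr17:28523145-28523245: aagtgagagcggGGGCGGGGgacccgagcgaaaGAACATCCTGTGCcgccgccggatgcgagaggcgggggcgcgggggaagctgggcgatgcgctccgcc
Nppb, chr4:147979760-147979860: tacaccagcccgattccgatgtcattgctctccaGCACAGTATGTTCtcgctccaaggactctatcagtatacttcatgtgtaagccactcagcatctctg
Klf9, chr19:23135038-23135138: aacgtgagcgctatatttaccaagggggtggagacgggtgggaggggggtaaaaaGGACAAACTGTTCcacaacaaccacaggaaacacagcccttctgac

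The signal of a peak is the authors' own value for its height over the control, and it serves here to order and describe the peaks of a single list. Over the 1128 regions it ran from 6.92 to 204.8 with a median of 31.5 and quartiles of 23.3 and 44.3, and 680 (60.3%) had a deposited −log10 q of at least 2. The files hold no read counts, so the depth behind each peak is unknown. The regions were assigned to 800 genes. A single region was assigned to 581 of them, 2 regions to 148, 3 to 48, 4 to 14, and 5 or more to 9. Neighbouring calls were common: 403 regions (35.7%) had another peak summit within 496 bp, the usual width of a call, and joining such summits left 918 sites. The median distance to the nearest other peak of any class was 2398 bp, and 301 regions (26.7%) had no other peak within 10 kb.

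Taken over both sides, the regions were densest at the TSS end of their range. Per Mb of intergenic DNA at the same distance, 12.3 peaks lay at 1 to 2 kb, and 6.25 to 8.19 in each further kb up to 10 kb. The whole zone held 7.98 per Mb, against 6.16 at 10 to 20 kb, 6.01 at 20 to 50 kb and 5.02 at 50 to 100 kb. Upstream regions numbered 910, or 80.7% (95% exact interval 78.2% to 82.9%), and regions downstream of the nearest TSS, beyond the gene body, numbered 218. The intergenic DNA of the zone was itself 81.5% upstream, and the density was 7.89 per Mb upstream and 8.35 downstream. Upstream the first bin was the densest, with 12.4 per Mb from 195 peaks, whereas downstream the densest was 5 to 6 kb, with 13.4 per Mb from 44 peaks, above the 11.3 from 12 peaks at 1 to 2 kb. The median distance to the TSS was 4954 bp (quartiles 2662 and 7256). Between neighbouring genes that point the same way lay 595 regions, between divergent genes 411 and between convergent genes 122, with median signals of 30.5, 32.1 and 32.6.

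**Figure D1:**
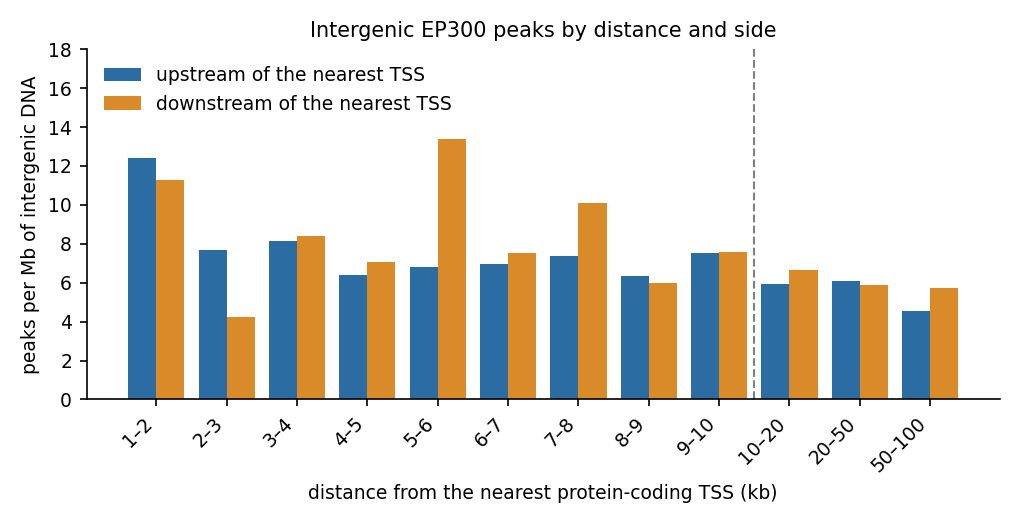
Bars give the number of EP300 peaks per Mb of intergenic DNA (vertical axis) in bins of distance from the nearest protein-coding TSS (horizontal axis, kb), upstream in blue and downstream in orange; the dashed line marks the 10 kb limit. The bin of 1 to 2 kb holds 12.4 upstream and 11.3 downstream, the highest downstream bar is 13.4 at 5 to 6 kb, and the bars beyond 10 kb lie between 4.55 and 6.64.

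Values at the limits of the rule are given as a description. The 19 intergenic peaks at 900 to 1000 bp had a median signal of 29 and the 31 regions at 1000 to 1100 bp one of 26.6. At the outer limit the 47 regions at 9500 to 10000 bp had 34.7 and the 51 peaks at 10000 to 10500 bp had 28.7.

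Each region was then looked up in the lists of the separate replicates, which hold 300000 calls each. A summit within 100 bp stood in the replicate 1 list for 977 regions, in the replicate 2 list for 873 and in both for 763. Across those 763 the signals of the 2 replicates were correlated with a Pearson r of 0.719 and a Spearman coefficient of 0.513, a description across peaks that share their chromatin and their selection from the pooled reads. The stricter measure used below asks for a summit among the leading calls of each replicate, that is as many calls of highest signal as the optimal list holds (17372). By it 505 regions (44.8%) were found in both replicates, 256 in replicate 1 alone, 166 in replicate 2 alone and 201 in neither. The share found in both over all peaks of the optimal list was 40.9%.

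Detection in both replicates went with signal, which is partly built into the measure. Leading calls are those of highest signal in each replicate, and the optimal list pools the reads of both. Groups of regions that differ in signal, by motif or gene list, will thus tend to differ in detection too. With the regions cut by signal into 5 bins of equal size, 209 of 225 (92.9%) were found in both in the top bin, with signals of 48.8 to 204.8. The share was 71.2% in the bin below it, 47.1% in the middle one, 11.1% in the next and 1.77% in the lowest, whose signals lay between 6.92 and 21.2. The conservative IDR list had a summit within 100 bp of 815 of the regions (72.3%), against 67.6% of all peaks. The rule applied to the conservative list itself gave 1106 regions. Of the 6 regions of Slc25a4, the strongest alone was found in both replicates.

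**Figure D2:**
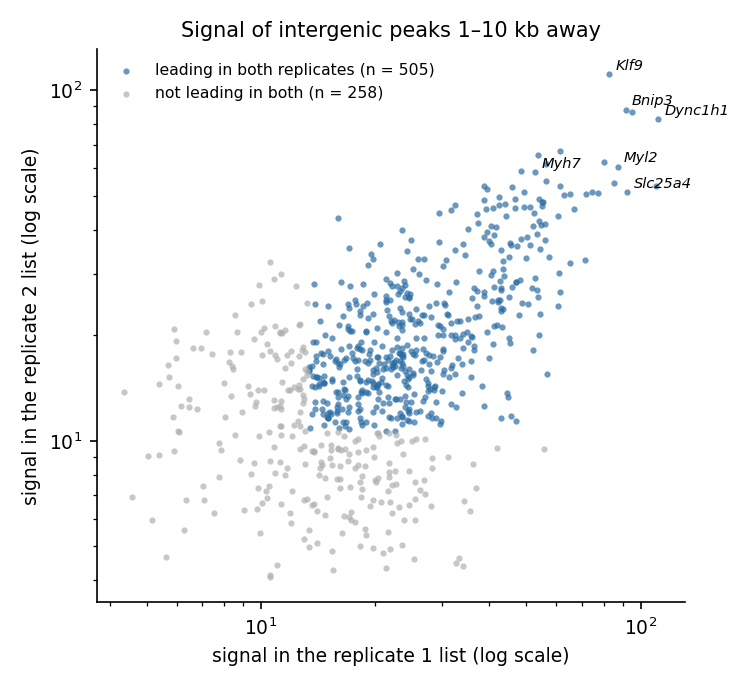
Each point is 1 of the 763 regions with a summit in both replicate lists, placed by its signal in replicate 1 (horizontal, log scale) and replicate 2 (vertical, log scale). Blue points (505) are among the leading calls of both replicates and grey points (258) are not; Dync1h1 lies highest in replicate 1 (111.5) and Klf9 in replicate 2 (111.0).

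The strongest region lay 5280 bp upstream of Klf9, a Krüppel-like transcription factor induced by glucocorticoids (chr19:23135777-23136124). Its signal was 204.8 in the optimal list, 82.7 in replicate 1 and 111.0 in replicate 2. A second region 6138 bp upstream of Klf9 reached 92.4 (38.6 and 53.2), and the promoter peak of the gene 66. The next was 9783 bp upstream of Dync1h1, the heavy chain of cytoplasmic dynein, with 192.1 (111.5 in replicate 1 and 82.7 in replicate 2). It stood inside the lncRNA gene B930059L03Rik, with no other peak within 10 kb.

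Bnip3, a mitochondrial protein that takes part in mitophagy, had a region of 183.5 (91.4 and 88.1) at 9900 bp upstream, where its promoter peak reached only 14.4. F3, tissue factor, which starts blood coagulation, had 174.4 (94.7 and 86.6) at 6781 bp downstream of its TSS, against 32.1 at its promoter. Arl8a, a small GTPase of lysosomes, had 166.4 (109.8 and 53.5) and no promoter peak. These 3 regions were all found in both replicates, and those of Bnip3 and F3 exceeded the promoter peak 12.7-fold and 5.43-fold in signal.

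Among the other regions of highest signal, Gm10282, a predicted gene between Ap1m1 and Klf2, had 141.7 (80.1 and 62.4). Shank3, a scaffold protein best known from synapses, had 135.9 (85.2 and 54.5), and Crip2, a LIM protein of heart and vessels, 130.8 (61.2 and 67.3). Ift81, an intraflagellar transport protein, had 128.2 with 85.1 in replicate 1, and the nearest leading summit of replicate 2 lay 133 bp away, outside the limit of 100 bp. Arrdc2, an arrestin-domain protein, had 126.3 (77.1 and 50.8), Slc16a13, of the monocarboxylate transporter family, 119.2 (53.8 and 65.2), and Smtnl2, a smoothelin-like protein, 116.5 (62.7 and 50.1). Of the 15 strongest regions, Ift81 alone lacked a leading summit of both replicates within that limit.

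Genes of the contractile apparatus had some of the strongest regions but not many of them. Of 30 sarcomere and Z-disc genes 5 had a region, 13 regions in all, which is 1.15% of the regions, beside 1.12% of all assigned peaks. Myl2, the regulatory myosin light chain of the ventricle, had 2, of 151.2 (87.1 in replicate 1 and 60.6 in replicate 2) and 81.1 (31.7 and 45.4), 6266 and 7995 bp upstream, the first above its promoter peak of 80.6. Myh7, the beta myosin heavy chain, had 3: 102.1 (52.7 and 58.5) at 2298 bp, 90.5 (37.4 and 41.9) at 9389 bp and a weak call of 29 beside the second. Its promoter peak reached 39.3.

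Myh6, the alpha myosin heavy chain, which lies next to Myh7, had 27 peaks in all but 1 in this zone, of 109.3 (71.7 and 50.7), 1576 bp upstream and within 1 kb of the TSS of the lncRNA Mhrt. Actc1, cardiac actin, had 5 calls of 15.4 to 45.8 that merged into 2 sites, of which 2 calls were found in both replicates, and its promoter peak of 64.8 was above all of them. Tnnt2, cardiac troponin T, had 21 peaks and none in the zone.

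Regulators of heart muscle had few regions. The 25 cardiac transcription factor genes had 7 regions at 5 genes, or 0.621% of the regions beside 0.837% of all assigned peaks. Mef2d, a MADS-box factor, had 106.3 (71.5 and 32.8) at 3871 bp upstream, against 30.3 at its promoter, and a second call of 21.7. Meis1, a homeobox factor, had 42.8 (23.9 and 15.8), Nkx2-5, the homeobox factor of heart formation, 41.5 (24.6 and 12.3) and Hand2, a basic helix-loop-helix factor, 40.2 (23.5 and 11.7) and 13.9. The strongest regions of these 4 genes were all CpG-rich, beside 13.5% of all regions. Of the second calls, that of Hand2 was CpG-rich and that of Mef2d was not. The 4 strongest regions were also found in both replicates, but they were picked by signal, with which detection goes. Over the whole list 4 of the 7 regions were found in both, beside 44.8% of all regions. The remaining gene, Tbx20, a T-box factor named after its values were seen, had 18.5 with 8.21 in replicate 1. Its region was neither CpG-rich nor found in both replicates. Gata4 (15 peaks in all), Mef2c (7) and Tbx5 (1) had none in the zone.

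Stress-response and calcium genes followed. The natriuretic peptide and stress list had 9 regions at 7 of 14 genes (0.798% beside 0.435%), of which 1 was found in both replicates, that of the small heat shock protein gene Hspb7, with 91.3 (61.5 and 26.5). Nppb, the B-type natriuretic peptide, had 96.4 with 68.7 in replicate 1 at 5978 bp upstream, where the nearest leading summit of replicate 2 lay 125 bp away, and 26.9 in the gap between it and Nppa. Nppa had 1 peak in all and none in the zone. Ankrd1, an ankyrin-repeat protein of stretched heart muscle, had 32.3 and 28.6, both below its promoter peak of 67.1.

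The calcium and ion channel list had 8 regions at 4 of 26 genes (0.709% beside 0.610%). Atp2a2, the calcium pump of the sarcoplasmic reticulum, had 84.5 (44.2 and 43.8) at 8766 bp upstream with 2 weaker calls, the lower of 17.2, and no promoter peak. Kcnh2, a potassium channel, had 72.7 (46.9 and 11.4), and Jph2, a junctophilin of the dyad, 63.5 (37.5 and 22.7) with 2 weaker calls. Ryr2, the calcium release channel, and Pln, the inhibitor of the pump, had no region.

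Genes of fatty acid use and mitochondrial energy had 17 regions at 6 of 29 genes, 1.51% beside 0.688% of all assigned peaks. Strong regions lay near Slc25a4, the ADP/ATP carrier of heart and muscle, with 136.6 (92.3 and 51.2), Txnip, an inhibitor of thioredoxin that limits glucose uptake, with 109.1 (65.2 and 50.7), and Fabp3, the fatty acid binding protein of the heart, with 60.7 in replicate 1 and 43.9 in replicate 2. Mb, myoglobin, had 99.2 and Lpl, lipoprotein lipase, 88.0; both were named after their values were seen. Slc25a4 and Txnip together gave 12 of the 17 calls: the 5 further calls of Slc25a4, downstream of the gene, ranged from 11.6 to 32.8 and none was found in both replicates. Acadl, named after its values were seen, had the last, of 30.6.

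Endothelial and endocardial genes had 13 regions at 8 of 35 genes (1.15% beside 0.876%), of which 11 were found in both replicates, beside 44.8% of all regions. Their median signal was 47.7, against 31.5 over all regions, and detection goes with signal by its definition. All 13 lay upstream, beside 80.7% of all regions. Egfl7, a secreted factor of endothelial cells whose gene also hosts a microRNA, had 3: 118.1 (74.3 and 51.3) at 1377 bp, 87.1 (53.8 and 25.8) at 3857 bp and 92.7 (54.5 and 35.2) at 8006 bp. Each was below its promoter peak of 120.4. Cdh5, the cadherin of endothelial junctions, had 67.5 (38.8 and 26.6), 44.3 (21.4 and 25.2) and 28.6 (13.7 and 15.3), and its promoter peak reached 28.1, below all 3. Eng, endoglin, a coreceptor for transforming growth factor beta, had 74.6 (37.0 and 44.4) and 29.4 (13.6 and 16.4) without a promoter peak. Kdr, the receptor of vascular endothelial growth factor, had 10 peaks and none in the zone.

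Immediate early and glucocorticoid-response genes had the most regions of the 15 lists, 28 at 14 of 29 genes. They made up 2.48% of the regions and 0.889% of all assigned peaks; put the other way, 20.4% of the list's 137 peaks lay in the zone, against 7.32% of all assigned peaks. The list was written with earlier results of these data known, and its genes are short, with a median length of 5260 bp against 17636 bp over all protein-coding genes. The part of gene length in the share was not tested. Besides Klf9 the strong regions lay near Fkbp5, a chaperone of steroid receptors, with 101.3 (54.0 and 49.0), Zfp36, an RNA decay factor, with 84.1 (42.5 and 49.7), Jund, an AP-1 subunit, with 68.3 (42.2 and 24.9), and Dusp1, a phosphatase of MAP kinases, with 61.4 (31.3 and 26.6). Fkbp5 and Zfp36 were named after their values were seen. Ier2, an immediate early gene, had 4 calls of 9.34 to 44.8, of which the strongest (24.9 and 18) was found in both replicates. Over the list 10 of 28 were found in both.

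Clock genes had 7 regions at 5 of 17 genes (0.621% beside 0.389%), with a median signal of 76.1, against 31.5 over all regions, and 5 of the 7 were found in both replicates. Bhlhe40 and Bhlhe41 encode basic helix-loop-helix repressors of the clock. Bhlhe41 had 103.8 (46 and 53) at 9454 bp downstream of its TSS and 40.2 at 1080 bp upstream, and Bhlhe40 had 100.6 (51.3 and 46.5) and 76.1 (43.3 and 32.5). Nr1d1, the nuclear receptor REV-ERB alpha, had 96.8 (65.1 and 32.1). Per1 had 6 peaks and none in the zone.

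The lists for other cell types held 0 to 6 regions each. Fibroblast and matrix genes had 6 at 3 of 21 genes (0.532% beside 0.402% of all assigned peaks), led by Ccn2, a matricellular protein, with 78.8 (45.3 and 36.6), ahead of Ccn1 with 4 calls of 8.18 to 34.4 and Fbn1, fibrillin, with 29.2. Smooth muscle genes had 1 (0.0887% beside 0.130%), of 29.7 at Abcc9, a subunit of potassium channels. Macrophage, erythroid, epicardial and neuronal genes had 0 regions, and these lists had only 3, 1, 4 and 6 peaks of any class. The liver list had 1 (0.0887% beside 0.0260%), of 38 (15.2 and 17.5) upstream of G6pc, glucose-6-phosphatase. That region held a glucocorticoid receptor palindrome, as did 3.37% of all regions.

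The genes with most regions were not mainly those with the strongest. Tnrc18 had 7 calls of 13.3 to 44.8, Id1, an inhibitor of basic helix-loop-helix factors, 6 of 12.3 to 54.0, and Gm16253, a predicted gene beside Txnip, 6 of 10.1 to 87.9. Merged, these 3 genes had 5, 5 and 4 sites. Hes1, a repressor downstream of Notch, had 5 calls of 7.31 to 77.7 in 3 sites, Rhof, a small GTPase, 5 of 11.2 to 35.2 in 2 sites, and Josd2, a deubiquitinase, 4 of 39.3 to 96.9 in 3 sites. None of the 5 calls of Rhof and all 4 of Josd2 were found in both replicates.

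The next comparison asked whether these regions differ from the distal peaks most like them, the intergenic peaks at over 10 kb to 100 kb and the distal intronic peaks. Their nearest gene more often had a promoter peak, their windows were more often CpG-rich, and they lay in or at lncRNA genes more often than intronic peaks but less often than the further intergenic ones. Signal and detection in both replicates did not pass the test. All 10 comparisons used Fisher's exact test (two-sided) with Benjamini-Hochberg adjustment over the 10. Peaks of 1 pooled list are the units, so p compares peaks and not animals.

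A promoter peak at the nearest gene was present for 525 regions (46.5%), against 40.3% of all distal peaks. The share was 38.6% for the further intergenic peaks (difference 7.97 points, interval 4.57 to 11.4, odds ratio 1.39, exact test, adjusted p = 1.0e-05). It was 41.2% for intronic peaks (difference 5.33 points, 2.16 to 8.52, odds ratio 1.24, exact test, adjusted p = 0.00212). The second difference did not pass once neighbouring calls were merged (odds ratio 1.14) and turned round when TSSs and bodies of all annotated genes defined the classes (0.850). Where both were present the promoter peak was usually the stronger: the region exceeded it in 212 of 525 pairs (40.4%), with medians of 31.7 and 41.6. After Bnip3 and F3 the highest ratios of region to promoter peak were those of Cdc42ep1 (5.40), Fn3k (4.96), Spag9 (4.45), Arhgef2 (4.36), Ube2s (4.23) and Actg1 (4.07), all 6 named after their values were seen, followed by Mef2d (3.51).

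CpG-rich windows, with 200 bp of at least 50% G and C and an observed to expected CpG ratio of at least 0.6, made up 152 of the regions (13.5%), below the 25.9% of all peaks, which include promoters. The share was 7% at 10 to 100 kb (odds ratio 2.07, exact test, adjusted p = 1.4e-09) and 2.38% in introns (odds ratio 6.38, exact test, adjusted p = 1.9e-46). The CpG-rich share was 21.3% at 1 to 2 kb, 10.4% at 2 to 5 kb and 12.6% at 5 to 10 kb. It did not go with replicate detection, at 44.1% in both replicates for CpG-rich regions and 44.9% for the rest, and the median signals were 35.9 and 31.2. The strongest CpG-rich regions were those of Klf9, Dync1h1, Mef2d and Bhlhe41, and of the 152, 32 (21.1%) lay within 1 kb of a lncRNA TSS, against 6.56% of the others.

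A lncRNA gene body or TSS within 1 kb was found at 203 regions (18%), against 14.7% of all peaks. The share was 21.6% at 10 to 100 kb (odds ratio 0.799, exact test, adjusted p = 0.0199) and 6.84% in introns (odds ratio 2.99, exact test, adjusted p = 8.8e-28). Gene bodies of lncRNAs held 161 of the regions, and 96 lay within 1 kb of a lncRNA TSS. After Dync1h1 and Myh6 the strongest were near Zmiz1, at the antisense gene Zmiz1os1, with 102.4, and near Fkbp5 and Mb, and Zmiz1 was named after its values were seen. Strand cannot be read from ChIP-seq, so a peak at a lncRNA TSS near a coding gene cannot be assigned to either.

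Peaks above the median signal of all peaks, 50% by construction, included 587 regions (52.0%), against 51.9% of the further intergenic peaks (difference 0.177 points, interval −3.25 to 3.60) and 49.1% of intronic ones (2.98 points, −0.219 to 6.17). Detection in both replicates differed by −0.0887 points (−3.49 to 3.33) and by 2.50 points (−0.658 to 5.69). The exact tests gave adjusted p of 0.972, 0.104, 0.972 and 0.161, with odds ratios of 1.01, 1.13, 0.996 and 1.11. On the conservative list the first ratio turned to 0.824 (Fisher's exact test, adjusted p = 0.0103), and each comparison with introns passed the threshold under 3 alternatives, with odds ratios of 1.16 to 1.24 for signal and 1.14 to 1.28 for detection.

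**Figure D3:**
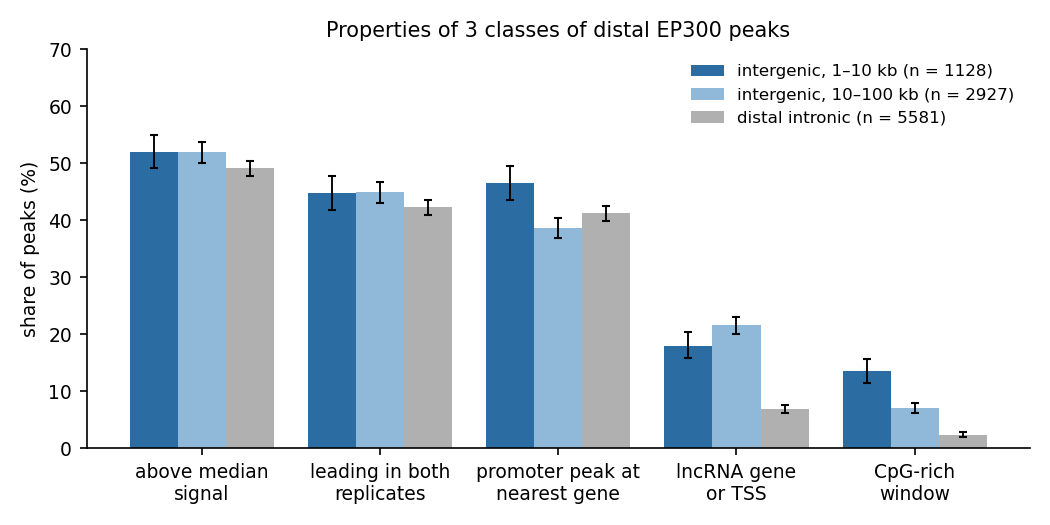
Bars give the share of peaks (vertical axis, %) with each of 5 properties in the 1128 intergenic peaks at 1 to 10 kb, the 2927 at 10 to 100 kb and the 5581 distal intronic peaks; error bars are 95% exact intervals of the share. The first 2 properties lie close together in all 3 classes, and the CpG-rich share falls from 13.5% to 7% and 2.38%.

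Upstream and downstream regions were compared in the same 5 properties, and none passed (Fisher's exact test, Benjamini-Hochberg over the 5). The promoter peak share was 45.1% upstream and 52.8% downstream (difference −7.70 points, interval −15.0 to −0.326, odds ratio 0.734, exact test, unadjusted p = 0.0416 and adjusted p = 0.208); it passed without replicate 1 (0.671). The remaining 4 differences lay between −2.50 and 1.39 points, with adjusted p of 0.922 each in the exact test.

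The motif comparison asked which transcription factor sites lie under these summits. Windows of 200 bp at the summit were searched on both strands for 28 consensus motifs and set against flanks of equal width lying 1 kb to either side, with an exact sign test of summit against downstream window and Benjamini-Hochberg adjustment over the 28. For flanks, upstream and downstream follow the plus strand and not the direction of the gene. Of these, 14 (50%) passed, all more frequent at the summit. A match is a string of letters and not a measured site. The motifs MEF2, CArG box, CTCF, REV-ERB, NFI and the glucocorticoid receptor palindrome are given by name, and the further ones not spelled out above or below were the promoter-type ETS site CCGGAAGT, PU.1 GAGGAAGT, ERR TCAAGGTCA, RUNX TGTGGTTT, D-box TTATGTAA and the HNF4 contrast CAAAGTCCA.

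Of the sites read by endothelial and blood regulators, 3 passed and 3 did not, counting here GATA, which factors of heart muscle read too. The endothelial type of ETS site was in 70 windows (6.21%) against 1.86% of flanks, a ratio of 3.33 (exact sign test, adjusted p = 5.7e-07), and in 5.43% of all 17169 peaks. Its 70 regions, led by Gm10282 (141.7), Egfl7 (118.1 and 92.7) and Eng (74.6), had a median signal of 37.4, against 31.2 for the regions without it, and 46 (65.7%) were found in both replicates, beside 44.8% of all regions. The SOX site occurred in 5.14%, and its flanks held it in 2.08% (2.47 times, exact sign test, adjusted p = 1.0e-04; 3.45% of all peaks), with Egfl7 first again and Cdh5 among the strongest. GATA was in 56 windows, 4.96% against 2.17% (2.29, exact sign test, adjusted p = 2.9e-04; 5.32% of all peaks), led by F3, Shank3 and Crip2, and 64.3% were found in both replicates. PU.1, a factor of myeloid cells, was in 2.66% against 1.86% (1.43, adjusted p = 0.0910 in the exact sign test), RUNX in 0.975% against 1.37% (0.710, adjusted p = 0.349 likewise) and the promoter-type ETS site in 0.887% against 0.222% (4, adjusted p = 0.161 likewise). PU.1 passed under 5 of the 12 alternatives, and without replicate 2 both PU.1 (ratio 1.65) and RUNX (0.581, fewer at the summit) passed.

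Sites of muscle regulators were mixed. The class A E-box, a site of basic helix-loop-helix factors, was the most frequent, in 214 windows (19%) against 9.97% (1.90, exact sign test, adjusted p = 5.7e-07; 17.8% of all peaks). MEIS was in 15.9% against 12.2% (1.30, adjusted p = 1.1e-04 in the exact test; 18.2% of all peaks), TEAD in 5.41% against 2.62% (2.07, exact test, adjusted p = 0.0117; 5.69%) and MEF2 in 21 windows, 1.86% against 0.488% (3.82, exact test, adjusted p = 0.0128; 2.41%). The 2 flanks differed for MEIS, with 179 summit windows, 164 upstream and 112 downstream. The main test used only the downstream flank. Against the upstream flank, 1 of the 12 alternatives, MEIS did not pass (adjusted p = 0.686 in the exact sign test). In that alternative 13 motifs passed in place of 14. TEAD sites included those near Myh7 (102.1) and Mb (99.2). By contrast the CArG box of serum response factor was in 9 windows, 0.798% of summits and of flanks (1.00). The HAND E-box CATCTG had a ratio of 0.921, NKX2 1.25, the forkhead site 0.966 and the T-box site AGGTGTGA 1.33, and none of these 5 passed with 200 bp windows (adjusted p of 0.173 to 1.00 in the exact sign test). With 400 bp windows the CArG box passed (1.95, exact sign test, adjusted p = 0.0347). With 200 bp windows it passed against the flanks of the peaks at 10 to 100 kb (2.24) and in introns (1.93). The forkhead site also passed in both of these classes (1.36 and 1.33). The HAND E-box (1.16) and NKX2 (1.44) passed in introns only, and the T-box site in neither.

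Of the sites of signal-dependent, metabolic, clock and general factors, 7 passed, counting the palindrome described next, and 6 did not. AP-1 (TGANTCA) was in 109 windows, 9.66% against 5.19% (1.86, exact sign test, adjusted p = 6.9e-05; 7.37% of all peaks), the circadian E-box in 6.03% against 3.01% (2.00, exact test, adjusted p = 0.00498; 6.30%) and KLF and SP in 5.32% against 2.04% (2.61, exact test, adjusted p = 1.8e-06; 7.02%). The strongest regions with a circadian E-box were those of Klf9 (204.8), Dync1h1 (192.1), Arl8a (166.4) and Slc25a4 (136.6). STAT (TTCCNGGAA) was in 26 windows (2.30%, ratio 3.06), among them Bnip3, CTCF, which marks loop anchors, in 19 (1.68%, 6.33) and CREB (TGACGTCA) in 11 (0.975%, 5.50). Their shares of all peaks were 1.72%, 1.04% and 1.05%, and their adjusted p in the exact sign test 0.00747, 0.00722 and 0.0449. The detection shares in both replicates were 41.3% for AP-1, 36.8% for CTCF, 45% for KLF and SP, 51.5% for the circadian E-box, 65.4% for STAT and 63.6% for CREB. Not past the threshold were the KLF CACCC box (ratio 0.857), REV-ERB (0.889), the D-box (0.526), ERR (0.571) and the HNF4 contrast (2.00), with adjusted p of 0.327 to 0.820 in the exact sign test, and NFI, in 3 summit windows and 0 flanks (adjusted p = 0.349 in the exact test). Without replicate 2 the D-box passed, with fewer at the summit (0.273). Against the flanks of the other classes, the D-box (1.66) and REV-ERB (2.75) passed at 10 to 100 kb only, and the CACCC box in introns only (1.35). ERR, the HNF4 contrast and NFI passed in neither. Under the alternatives the call was lost in 4 of 12 for CREB, 2 for the circadian E-box, and 1 each for MEF2, MEIS and STAT.

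The glucocorticoid receptor palindrome had the highest ratio of those that passed. It was in 38 windows, 3.37% of the regions against 0.355% of flanks (9.50, exact sign test, adjusted p = 1.8e-06), and in 2.07% of all peaks. In pairs, 38 summits held it where the downstream window did not, and 5 the reverse. The call was made under all 12 alternatives, with ratios of 5.05 to 15.5. The 38 regions had a median signal of 38.6 against 31.2 for those without, 30 of them (78.9%) lay above the median signal of all peaks and 22 (57.9%) were found in both replicates, and each was assigned to a different gene. Leading were Arrdc2 (126.3), Myh7 (102.1), Fkbp5 (101.3), Nppb (96.4), the second Klf9 region (92.4), Tpt1, translationally controlled tumour protein (75.4), Pnrc2 (70.1), Ndufc2, a subunit of respiratory complex I (66.7), and Ttpal (63.2). Further down was the cell cycle kinase Wee1 (38.6), and the weakest were Naglu (16.4) and Noct, a circadian deadenylase (12.3). Those not fixed by the naming rule were named after their values were seen.

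The palindrome stood above its flanks in the other distal classes too. Its share was 2.29% at 10 to 100 kb, 6.09 times the flanks there (exact sign test, adjusted p = 4.2e-10), and 3.19% in introns, 9.13 times the flanks (exact sign test, adjusted p = 2.0e-30). The difference of the regions from these classes did not pass (odds ratios 1.49 and 1.06, Fisher's exact test, adjusted p = 0.211 and 0.826). The first difference was 1.08 points, with an interval of −0.0100 to 2.39. With 400 bp windows this first difference passed (odds ratio 1.67, Fisher's exact test, adjusted p = 0.0263). The matches lay close to the summit: 16 regions had one in the 50 bp before it and 16 in the 50 bp after, against 0 to 5 in each other bin of 50 bp within 500 bp. The ETS site behaved likewise, with 25 and 22 in the central bins, whereas MEIS matches were spread, with 27 to 61 per bin.

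**Figure D4:**
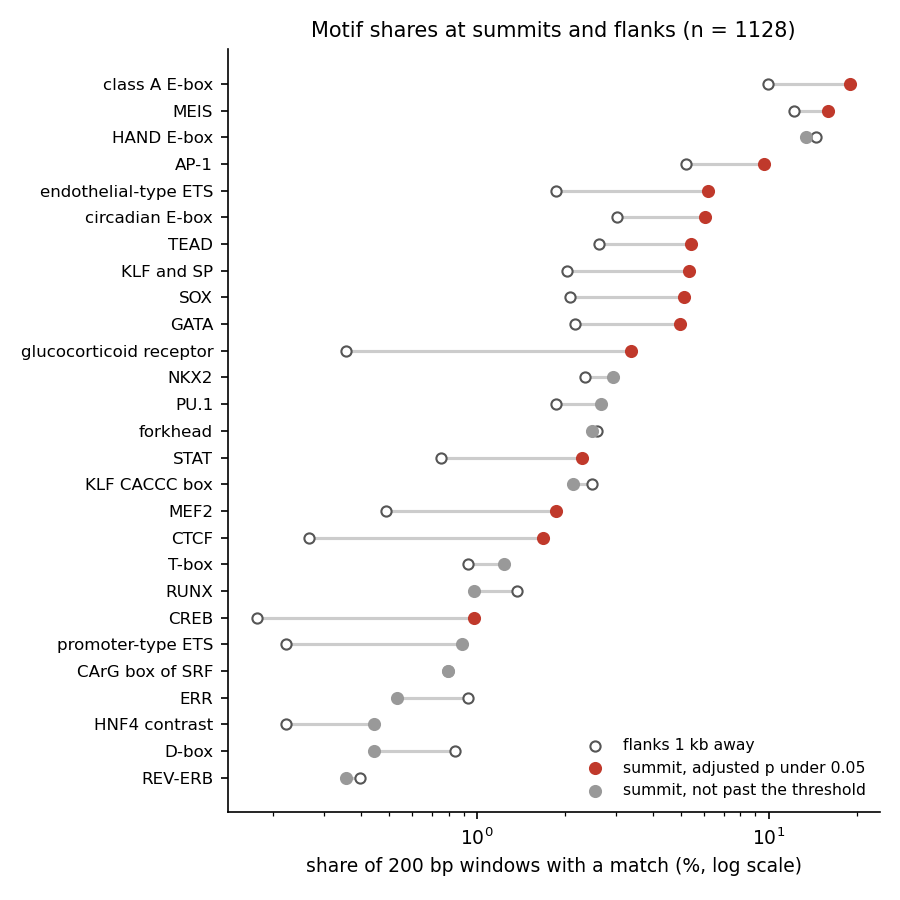
Each row is 1 of 27 motifs, with the share of 200 bp windows that hold a match (horizontal axis, %, log scale) at the 1128 summits (filled) and in the flanks 1 kb away (open); red marks an adjusted p under 0.05. NFI is left out because no flank held it, and the widest gaps are those of the glucocorticoid receptor (3.37% against 0.355%) and CTCF (1.68% against 0.266%).

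**Figure D5:**
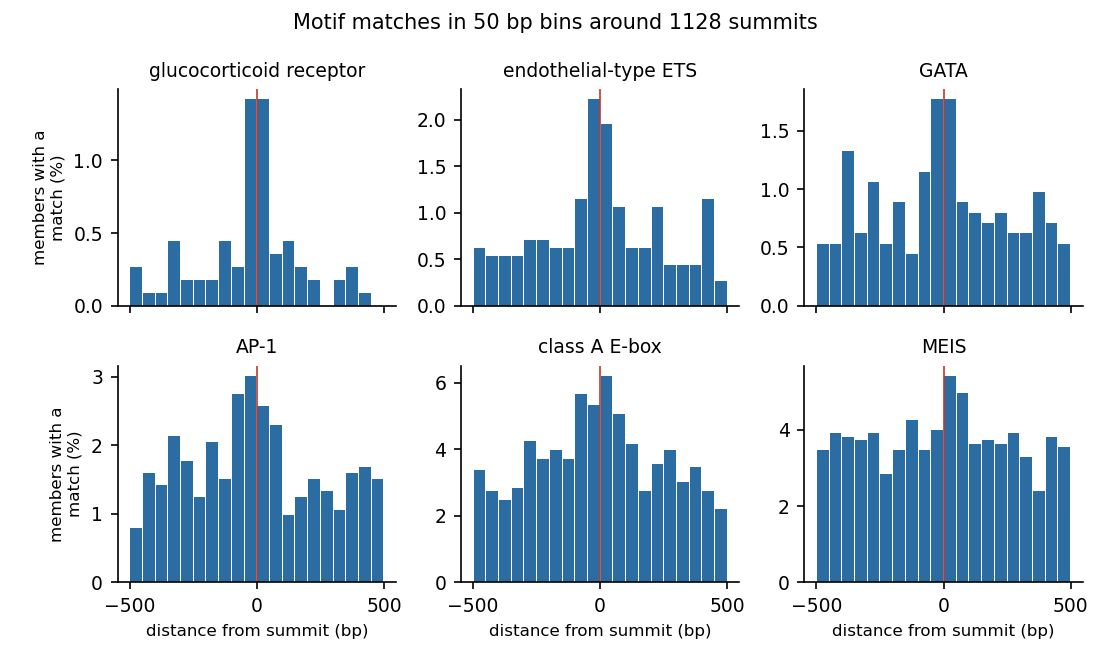
Bars give the share of the 1128 regions with a match (vertical axis, %) in bins of 50 bp by distance from the summit (horizontal axis, bp) for 6 motifs; the red line is the summit. The glucocorticoid receptor, ETS and GATA matches peak in the 2 central bins, and MEIS matches do so far less.

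Compared with the 2 other distal classes, 9 of 56 motif comparisons passed (16.1%, Fisher's exact test with Benjamini-Hochberg adjustment over the 56). Of the 9 sites described above with muscle regulators, 4 were less frequent than in introns, as was GATA: MEIS in 15.9% against 22.5% (odds ratio 0.649, exact test, adjusted p = 1.1e-05), the HAND E-box in 13.4% against 18.2% (0.694, exact test, adjusted p = 0.00136), GATA in 4.96% against 7.76% (0.621, exact test, adjusted p = 0.00639), MEF2 in 1.86% against 3.31% (0.553, exact test, adjusted p = 0.0496) and the CArG box in 0.798% against 1.94% (0.408, exact test, adjusted p = 0.0457). The other 5 did not pass against introns: the odds ratio was 0.731 for TEAD (exact test, adjusted p = 0.115), 0.890 for the class A E-box (exact test, adjusted p = 0.327), 0.798 for NKX2 (exact test, adjusted p = 0.425), 0.688 for the forkhead site (exact test, adjusted p = 0.220) and 1.10 for the T-box site (exact test, adjusted p = 0.817). MEIS was also less frequent than at 10 to 100 kb, where 21% held it (0.708, exact test, adjusted p = 0.00194).

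KLF and SP sites were more frequent in the regions than in both classes, with 3.38% at 10 to 100 kb (odds ratio 1.60, exact test, adjusted p = 0.0457) and 1.85% in introns (2.99, exact test, adjusted p = 2.5e-08). CTCF was more frequent than in introns, 1.68% against 0.520% (3.28, exact test, adjusted p = 0.00194). Of the KLF and SP regions 28 of 60 (46.7%) were CpG-rich, and of the CTCF regions 7 of 19 (36.8%), against 1 of 70 (1.43%) for the endothelial ETS site and 4 of 56 (7.14%) for GATA. The MEIS and the KLF and SP differences from introns held under all 9 alternatives and the CTCF difference under 8. The others were lost in 2 to 7 of 9, most often the KLF and SP difference from 10 to 100 kb and the CArG difference, in 7 each.

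Between the sides, 1 of 28 motifs passed (3.57%): AP-1 was in 11.1% of the 910 upstream windows and in 3.67% of the 218 downstream ones (8 windows; odds ratio 3.28, Fisher's exact test, adjusted p = 0.0135). The call held under 2 of 9 alternatives, and with all annotated genes the ratio was 0.928. The strongest AP-1 regions lay near Spaar (98), Nppb (96.4), Klf9 (92.4) and Hmox1, haem oxygenase (82.9 and 67); Spaar and Hmox1 were named after their values were seen.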

How the data were processed

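EP300 ChIP-seq peaks of 2 replicates of newborn mouse heart were used, in 5 lists on mm10. Per the file headers, the authors called peaks on each replicate and on pooled reads, and took the optimal and conservative IDR lists from these. The sources used here do not name the aligner, the peak caller or the IDR cutoff. The deposited columns used are the authors' signal (height over the control, its formula not stated), a −log10 q as deposited, and a score that is the authors' scaled IDR and reaches 1000. No read counts stand in the lists, so depth and its precision are unknown, and intervals cover counting error over peaks only.

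Summits were placed on GENCODE M21 gene models (52063 protein-coding TSSs) and the RefSeq GRCm38.p6 sequence, after checking that all peaks lie inside their chromosomes. Peaks outside chromosomes 1 to 19 were left out. A peak counts as found in both replicates when each replicate has 1 of its 17372 leading summits within 100 bp. Shares were compared by Fisher's exact test, with exact (Clopper-Pearson) intervals for a share and Newcombe intervals for a difference, all at 95%, and motifs against flanks by an exact sign test. The threshold was a Benjamini-Hochberg adjusted p of 0.05. The scripts were tested on simulated data.

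The regions, the 15 gene lists and the 28 motifs were chosen with earlier results of these data known, so lists are described by counts. Named are the nearest gene of the 15 regions of highest signal, the 10 genes with most regions, the 3 genes with most regions in each list, and Gata4, Hand2, Kdr, Mef2c, Myh6, Myh7, Nkx2-5, Nppa, Nppb, Per1, Pln, Ryr2, Tbx5, Tnnt2 and Txnip. Sequences shown are windows of 50 bases on either side of the summit with a motif match. Alternatives were other lists, each replicate alone, merged calls, a stricter q, all annotated genes, other distances, windows, cuts and flanks, and, chosen after seeing the data, the upstream flank in the sign test and peaks near lncRNA TSSs left out. Software was SciPy 1.17.1, pandas 2.3.3, pysam 0.24.0, numpy 2.4.6 and matplotlib 3.10.9 under Python 3.11.15.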

Additional observations from a re-analysis of the deposited data

How the results depend on the processing

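No paired analysis was possible because both samples belong to 1 group. The number of regions was 680 with a deposited −log10 q of 2 or more, 1707 with all annotated genes, 572 at 1 to 5 kb and 1847 at 1 to 20 kb, and 1149 to 1239 when either replicate was left out. In the comparisons of properties, 83 of the alternative values kept their direction and side of the threshold, 7 newly passed it, 1 no longer did, and 23 turned round, of which 2 were past the threshold. The kept values include the promoter peak at a promoter distance of 2 kb (odds ratios 2.00, 1.52 and, between the sides, 0.975). Regions at 1 to 2 kb then count as their own promoter peak, so these values are no check.

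The 2 turned values past the threshold were the above-median odds ratio against 10 to 100 kb on the conservative list (0.824) and the promoter peak odds ratio against introns with all annotated genes (0.850). The latter was 1.14 with merged sites. The other turned values did not pass. For signal against 10 to 100 kb they were 0.977 to 0.993 when either replicate was left out, 0.959 at the stricter q, 0.981 with all annotated genes and 0.963 for the top 20% by signal, and against introns 0.936 on the conservative list. For detection in both replicates they were 1.01 with all annotated genes, 1.02 at 50 bp, 1.09 at 250 bp and 1.03 without peaks near lncRNA TSSs against 10 to 100 kb, and 0.951 on the conservative list and 0.996 with 2 times as many leading calls against introns. Between the sides they were 0.922 for signal at the stricter q, 1.00 for detection without peaks near lncRNA TSSs, 1.18 for promoter peaks with all annotated genes, 1.08 for lncRNAs with merged sites, and 1.10 at the stricter q and 1.18 with all annotated genes for CpG-rich windows. Leaving out 1 replicate gave 0.985 to 1.06 for signal, 0.966 to 1.03 for lncRNAs and 0.928 to 1.21 for CpG-rich windows between the sides, and in each of these ranges only 1 of the 2 values had turned.

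Newly past the threshold were signal against introns when either replicate was left out (1.16 each) and with merged sites (1.24), detection against introns with all annotated genes (1.14), at 250 bp (1.28) and without peaks near lncRNA TSSs (1.16, added), and the promoter peak between the sides without replicate 1 (0.671). Without replicate 2 the last ratio was 0.742 and did not pass.

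The 9 motif differences from the other classes became 2 at the stricter q, 4 with 100 bp windows and 15 with 400 bp windows, and 4 to 6 when either replicate was left out. The 1 difference between the sides became 0 on the conservative list, when either replicate was left out (0 to 0), with all annotated genes (AP-1 odds ratio 0.928), with windows of 100 or 400 bp and without peaks near lncRNA TSSs. Of the ratios to flanks, those that turned were not past the threshold. On the conservative list they were 1.01 for the HAND E-box, 0.906 for NKX2, 1.08 for forkhead, 1.73 for ERR, 1.14 for REV-ERB and 0.800 for the HNF4 contrast. At the stricter q they were 1.04 for the HAND E-box, 1.12 for forkhead and 1.13 for the CACCC box. With all annotated genes they were 0.978 for NKX2, 1.17 for forkhead, 1.04 for the CACCC box, 1.28 for RUNX and 0.800 for the HNF4 contrast. With 100 bp windows they were 1.04 for the HAND E-box, 0.923 for NKX2 and 1.07 for RUNX, and with 400 bp windows 0.908 for NKX2, 1.24 for forkhead and 0.857 for T-box. Forkhead with merged sites gave 1.02, and the CACCC box with flanks over 1 kb from every TSS 1.05. Leaving out 1 replicate gave 1.00 to 1.05 for the HAND E-box, 1.30 to 1.37 for forkhead and 1.20 to 1.33 for the CACCC box. It gave 0.866 to 1.02 for NKX2, 0.909 to 1.57 for T-box, 1.00 to 1.14 for REV-ERB and 0.571 to 2.40 for the HNF4 contrast, where only 1 of the 2 values had turned. Against introns, the T-box odds ratio was 0.961 on the conservative list, 0.961 with merged sites and 0.918 with 400 bp windows, that of forkhead 0.931 to 1.05 with 1 replicate left out, and that of the glucocorticoid receptor 0.940 on the conservative list and 0.932 to 1.00 with 1 replicate left out. With 400 bp windows the promoter-type ETS site (2.91, adjusted p = 0.0438) and RUNX (0.597, adjusted p = 0.0467) newly passed against flanks in the exact sign test, as did the CArG box. Against introns, the class A E-box newly passed with 400 bp windows (0.819, Fisher's exact test, adjusted p = 0.0263). So did NKX2 on the conservative list (0.546, Fisher's exact test, adjusted p = 0.0361). The cause of these changes was not tested.

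Detection in both replicates gave no value with 1 replicate left out, and lncRNA shares gave none with all annotated genes. Read depth is unknown, so the precision of a single signal is seen only in the 2 replicates.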

Other observations

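Matches to 8 motifs of the heart and vessels (the class A E-box, the endothelial ETS site, TEAD, MEF2, GATA, MEIS, AP-1 and the CArG box) were counted per region as a description. No match to any of the 8 was found in 581 regions (51.5%), whose median signal was 29.4. A single kind was found in 399 regions with a median of 32.7, 2 kinds in 127 with 35.6, 3 kinds in 18 with 33.3 and 4 kinds in 3 with 39.7. The promoter-type ETS site, which did not pass against its flanks, was in 10 regions, of which 6 were CpG-rich. CpG-rich windows also made up 7 of the 11 regions with a CREB site and 23 of the 68 with a circadian E-box, against 4 of the 38 with the glucocorticoid receptor palindrome. No test was made of these counts.

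By chromosome, the regions were most numerous on chromosome 11, with 136, followed by chromosome 7 with 86 and chromosome 4 with 85. These counts are not divided by the intergenic DNA of each chromosome.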
